A study of Mus musculus with 42 samples.

Results

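Cells that met an EZH2 inhibitor while they differentiated (ADE_EPZ) were compared directly with cells that met it only beforehand, as embryonic stem cells (ES_EPZ). All arrays whose titles place them in these groups were taken, 6 of the 42 in the series, with 3 replicates in each group. The cells were mouse embryonic stem cells of a single line that carries a GFP reporter at Gsc and a RedStar reporter at Hhex, and they were differentiated on an adherent surface towards anterior definitive endoderm (ADE) until day 6. ADE_EPZ cultures had received the solvent DMSO as stem cells and 2.5 μM EPZ6438 throughout differentiation. ES_EPZ cultures had received 2.5 μM EPZ6438 as stem cells and DMSO throughout differentiation. A further group of 3 arrays, Control, had DMSO in both periods and shares no array with the comparison. The labels of these 9 samples name no sort, while the methods speak of sorted ADE cells for the arrays in general, so whether whole day 6 cultures or a sorted fraction was read is not settled. In such RNA a gene that is higher in every cell and a gene that is on in more of the cells cannot be told apart.

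The timing of the inhibitor, the length of exposure and the time since the last exposure all differ between ADE_EPZ and ES_EPZ, and the design cannot tell them apart. Each slide of the inhibitor experiment held 1 array of each of the 3 groups. The ADE_EPZ and ES_EPZ arrays with the same replicate number lay on the same slide, so each replicate gives a difference within a slide. Nothing in the labels says whether replicates came from separate thaws of the line. The p-values rest on the spread within groups over all 42 arrays, not on that of the 6 compared arrays alone. The 3 Control arrays also entered the fit to help estimate the spread. So did the other 33 arrays, from untreated cells between the stem cell stage and day 6. Between 27176 and 34789 of the 55681 probes were well above background on the 6 arrays compared, no spot was saturated, and the number of arrays limits the precision.

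EZH2 is the catalytic subunit of Polycomb repressive complex PRC2, which methylates histone H3 at lysine 27. The mark sits mainly over promoters rich in CpG dinucleotides, many of them at genes for transcription factors of other lineages, and it holds these genes at low expression. When EZH2 is blocked, the mark is lost as cells divide and is put back once the inhibitor is gone. The comparison asks which genes reached a different level at day 6 when the enzyme was blocked during differentiation than when it was blocked before.

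A gene was called where a probe had a Benjamini-Hochberg adjusted p of at most 0.01 in limma and a log2 fold change of at least 1.5 in size, which is 2.83-fold. Of 22460 genes with a RefSeq accession, 34 were higher in ADE_EPZ than in ES_EPZ, or 0.151% of those tested, and 7 were lower, or 0.0312%. The genes called higher came to 82.9% of all calls. At the same adjusted p without the fold threshold, 114 genes were higher and 49 lower. The median log2 difference over all probes was -0.015. Every called probe moved the same way on all 3 slides. By their brightest probe, 21.7% of all named genes were higher on all 3 slides and 21.3% lower. The arrays of ADE_EPZ and ES_EPZ did not overlap on the called probe of any of these genes except Kcne3, where the lowest ADE_EPZ array read 7.53 and the highest ES_EPZ array 7.60. The thresholds favour such probes, and the share of all probes without overlap was not counted, so this is a description only. The call was made on the probe with the largest mean level for 33 of the 34 genes higher in ADE_EPZ, Zic1 being the exception, and for all 7 genes lower in ADE_EPZ.

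The number of calls rested on replicate 1 and on the spread being estimated from all 42 arrays. Without ADE_EPZ replicate 1, and equally without ES_EPZ replicate 1, the counts were 20 higher and 1 lower. Without ADE_EPZ replicate 3 there were 11 genes lower, and without ES_EPZ replicate 3 there were 14. Without ADE_EPZ replicate 2 the genes lower came to 2, and without ES_EPZ replicate 2 to 4. A fit of the 9 inhibitor arrays alone called 18 genes higher, 12 of them among the 34, and none lower, although 6058 probes had an unadjusted p under 0.05. A limma fit of the 6 compared arrays alone called none in either direction, with 6920 probes at an unadjusted p under 0.05. Without the replicate block for the slide, 27 genes were higher and 3 lower. Leaving out each of the 6 arrays in turn, 13 genes were called higher in every fit, among them Rarres1, Ghrl, Rhox6, Nsg1, Nepn, Rprm, Tbx15, Onecut2, Nod1, Pantr1, Esx1 and Ntm, and Rnu3b1 was called lower in every fit.

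**Figure D1:**
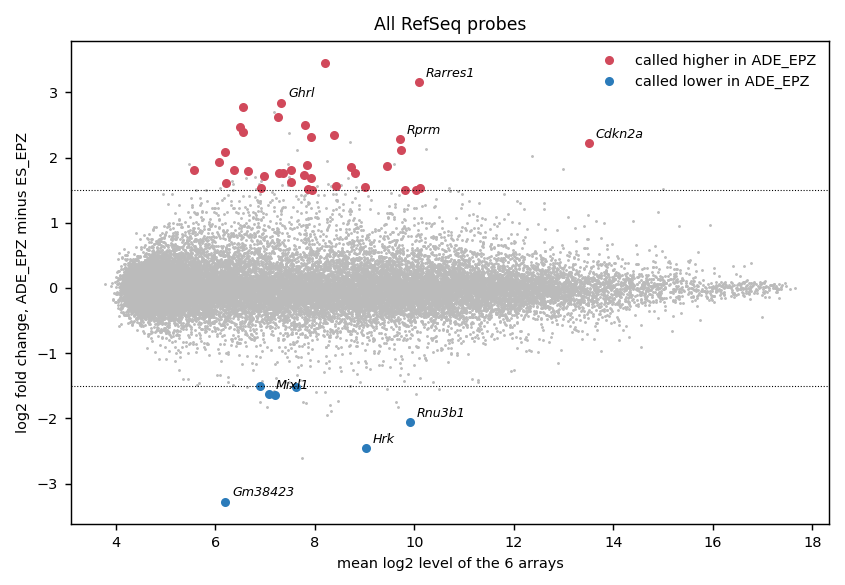
Every RefSeq probe, with the mean log2 level of the 6 arrays on the horizontal axis and the log2 fold change of ADE_EPZ minus ES_EPZ on the vertical axis. Red and blue points are probes called higher and lower in ADE_EPZ, and dotted lines mark a log2 fold change of 1.5 in either direction. Rarres1 stood at 3.15 and Ghrl at 2.84, Gm38423 at -3.28 stood lowest, and Cdkn2a was the called gene with the brightest probe.

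Homeobox and T-box genes were among the transcription factors higher in ADE_EPZ. Onecut2, a cut-homeodomain factor of liver and pancreas development, read 8.76, 8.82 and 8.77 in ADE_EPZ and 6.96, 6.67 and 7.08 in ES_EPZ. The SD was 0.04 in ADE_EPZ and 0.21 in ES_EPZ, and the log2 fold change was 1.88 ± 0.19 (SE) with an adjusted p of 3.24e-06. Its Control mean of 5.85 lay below every ES_EPZ array. Tbx15, a T-box factor of skeletal and skin development, read 7.56, 7.46 and 6.70 in ADE_EPZ and 5.50, 5.29 and 4.68 in ES_EPZ, where it was well above background on 2 of 3 arrays. Its log2 fold change of 2.08 ± 0.22 came with an adjusted p of 4.20e-06, and the means of Control and ES_EPZ were 5.24 and 5.16. Hoxc13, the last gene of the Hoxc cluster and known for its part in hair and nail formation, had a log2 fold change of 1.80 ± 0.29 with an adjusted p of 0.0011. Hoxc13 was well above background on all ADE_EPZ arrays, on 1 of the 3 ES_EPZ arrays and on no Control array.

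Zic1, a zinc finger factor of neural development, gave probes that disagreed. The called probe read 8.37, 9.28 and 8.05 in ADE_EPZ and 6.09, 6.28 and 5.47 in ES_EPZ, with Control at 6.95 ± 0.47 (SD), and its log2 fold change was 2.62 ± 0.41 (SE) with an adjusted p of 0.001. The brighter probe of the same gene read 8.98 in ADE_EPZ and 9.28 in ES_EPZ on average, a log2 fold change of -0.30 with an adjusted p of 0.726. Which of them measures the main Zic1 transcript was not tested.

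Pantr1, a non-coding RNA transcribed beside the neural factor gene Pou3f3, read 6.65, 6.51 and 6.28 in ADE_EPZ. It was not well above background on any ES_EPZ or Control array, where the means were 4.67 and 4.92. Set against the lowest signal that counted as well above background, it was at least 3.19-fold higher in ADE_EPZ, with an adjusted p of 1.28e-07 for the measured difference of 1.82. That bound holds for the deposited values: recomputed from the scanner files with other background corrections or normalisations, the measured difference ranged from 0.99 to 4.10, and Pantr1 was called in 3 of 5 versions. Of the genes called, Pantr1 had the smallest p in the deposited values.

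3 of the called homeobox genes, Rhox6, Rhox9 and Esx1, lie on chromosome X and are best known from placenta and germ cells. Rhox6 read 8.82, 8.38 and 6.63 in ADE_EPZ and 5.44, 4.62 and 5.45 in ES_EPZ. Rhox9 read 8.43, 8.16 and 6.64 in ADE_EPZ and 5.31, 5.26 and 5.49 in ES_EPZ. In both, replicate 3 of ADE_EPZ was the low array, and the difference within its slide was 1.18 for Rhox6 and 1.15 for Rhox9, while the other slides gave between 2.90 and 3.76. The log2 fold changes were 2.78 ± 0.34 for Rhox6 and 2.39 ± 0.34 for Rhox9, with adjusted p of 5.19e-05 and 0.00031. The Rhox genes are a tandem family of close relatives, and whether these probes read only their own gene was not tested. Esx1 was steadier, at 8.62, 8.59 and 8.07 in ADE_EPZ and 6.81, 6.67 and 6.38 in ES_EPZ, with a log2 fold change of 1.81 ± 0.23.

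**Figure D2:**
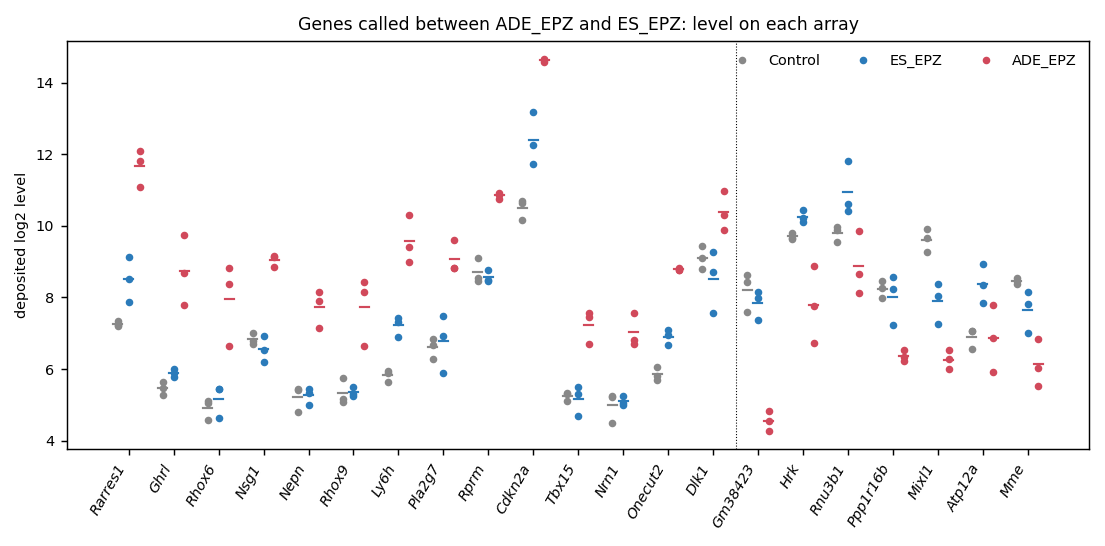
Deposited log2 level on each of the 9 inhibitor-series arrays for genes with the largest increases in ADE_EPZ by their brightest probe and, right of the dotted line, the 7 genes lower in ADE_EPZ. Points are arrays, bars are group means (n = 3), and grey, blue and red stand for Control, ES_EPZ and ADE_EPZ. ES_EPZ sat near Control for Ghrl, Nepn and Tbx15, and between Control and ADE_EPZ for Rarres1, Ly6h, Cdkn2a and Onecut2.

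Cdkn2a and Rprm, both known to restrain the cell cycle, were among the genes higher in ADE_EPZ. Cdkn2a, which encodes the CDK inhibitor p16 and, from another first exon, the p53 stabiliser ARF, read 14.62, 14.65 and 14.58 in ADE_EPZ and 12.26, 11.73 and 13.18 in ES_EPZ. Control read 10.65, 10.69 and 10.17, so the 3 groups did not overlap and ES_EPZ lay in the middle. The log2 fold change between the inhibitor groups was 2.22 ± 0.40 (SE), 4.67-fold, with an adjusted p of 0.00422, and a second, dimmer probe gave 2.12 ± 0.40. Side by side, the log2 fold change against Control was 4.11 ± 0.40 in ADE_EPZ and 1.89 ± 0.40 in ES_EPZ, with adjusted p of 3.45e-07 and 0.00864; both share the Control arrays. Rprm, reprimo, a p53-induced inhibitor of the passage into mitosis, read 10.86, 10.76 and 10.93 in ADE_EPZ and 8.47, 8.48 and 8.76 in ES_EPZ. Its log2 fold change was 2.28 ± 0.30 with an adjusted p of 0.000119. Control at 8.70 ± 0.36 (SD) overlapped ES_EPZ, so Rprm, unlike Cdkn2a, had no ES_EPZ array above the highest untreated one.

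Among the 7 CDK inhibitors listed, Cdkn2a was called higher and none was lower, beside 0.151% and 0.0312% of all genes tested. The median log2 difference of the 7 was 1.01, against 0.00 over all 21156 named genes. Cdkn2c read 5.76 in ADE_EPZ, where 2 of 3 arrays were well above background, and was not well above background on any ES_EPZ array. Its measured difference had an adjusted p of 0.00423 and did not reach the fold required. Cdkn2b, the neighbour of Cdkn2a, read 11.67 in ADE_EPZ, 10.23 in ES_EPZ and 7.79 in Control, with an adjusted p of 0.14 for the difference between the inhibitor groups. Of 16 p53 target genes none was called. Their median log2 difference was 0.49, and 12 of them, or 75%, were higher in ADE_EPZ on all 3 slides, while 21.7% of all named genes were. None of the 18 proliferation genes was called, with a median of -0.08.

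Genes for membrane and secreted proteins formed another group. Rarres1, a retinoid-induced membrane protein, read 12.08, 11.09 and 11.81 in ADE_EPZ and 8.51, 7.87 and 9.14 in ES_EPZ. The log2 fold change was 3.15 ± 0.41 (SE), 8.89-fold, with an adjusted p of 7.60e-05. Control at 7.26 ± 0.07 (SD) lay below all ES_EPZ arrays. Ghrl, which encodes the gut hormone ghrelin, read 9.73, 8.69 and 7.79 in ADE_EPZ and 5.99, 5.90 and 5.79 in ES_EPZ, a log2 fold change of 2.84 ± 0.38 with an adjusted p of 0.000145. The ADE_EPZ arrays of Ghrl had an SD of 0.97, while those of ES_EPZ had one of 0.10, and the lowest ADE_EPZ array still lay above the highest ES_EPZ array. Nepn, nephrocan, a secreted leucine-rich protein known from the early gut endoderm, read 7.89, 8.16 and 7.15 in ADE_EPZ and 5.00, 5.34 and 5.45 in ES_EPZ, where 1 of 3 arrays was well above background. Its log2 fold change was 2.47 ± 0.34 with an adjusted p of 0.00017.

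Pla2g7, a plasma phospholipase that inactivates platelet-activating factor, differed by 2.31 ± 0.46 on the log2 scale with an adjusted p of 0.00845. That call was lost with any 1 of the 6 arrays left out, as were those of Dlk1, Tgfbi, Ccdc80, Igdcc4 and Gm38423, with the fold change staying of the same sign. Tgfbi and Ccdc80, both proteins of the extracellular matrix, differed by 1.77 ± 0.34 and 1.68 ± 0.34. Dlk1, an imprinted inhibitor of Notch signalling, was the single gene called among 34 imprinted genes measured, beside 0.151% of all genes called higher. Dlk1 read 10.98, 10.31 and 9.87 in ADE_EPZ and 8.72, 9.27 and 7.56 in ES_EPZ. Apoa1, the main protein of high-density lipoprotein, and Cpn1, a plasma carboxypeptidase, are both made by endoderm and liver. Apoa1 read 8.49, 8.34 and 9.27 in ADE_EPZ and 6.58, 7.53 and 7.48 in ES_EPZ, a log2 fold change of 1.51 ± 0.24 with an adjusted p of 0.00144. For Cpn1 the difference within a slide was 1.91, 0.45 and 2.33, so the second slide contributed little, and Control at 8.53 lay between ADE_EPZ at 9.20 and ES_EPZ at 7.64.

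Several of the called genes act at the surface of neurons. Ly6h, a GPI-anchored modulator of nicotinic receptors, read 10.31, 8.99 and 9.40 in ADE_EPZ, 7.32, 6.90 and 7.43 in ES_EPZ and 5.88, 5.95 and 5.65 in Control. The groups did not overlap, ES_EPZ lay in the middle, and the difference between the inhibitor groups was 2.35 ± 0.39 (SE) with an adjusted p of 0.00187. Nrn1, neuritin, which promotes the outgrowth of neurites, read 6.70, 7.57 and 6.82 in ADE_EPZ and 5.00, 5.24 and 5.05 in ES_EPZ, with Control at 4.99. Its log2 fold change of 1.94 ± 0.29 had an adjusted p of 0.000531. Nsg1, an endosomal protein of neurons, read 9.15, 9.14 and 8.86 against 6.20, 6.52 and 6.93 in ES_EPZ, a log2 fold change of 2.50 ± 0.30 with an adjusted p of 3.98e-05. Ntm, neurotrimin, and Clstn2, calsyntenin, adhesion molecules of neurons, differed by 1.73 ± 0.24 and 1.77 ± 0.23.

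The study named 13 neural genes on these same samples, so a count over them is no independent evidence of direction. Of these, Ly6h, Nrn1, Zic1 and Pantr1 were called higher in ADE_EPZ than in ES_EPZ and none was lower. Beside this, 0.151% and 0.0312% of all genes tested were called higher and lower. Zic1 was called on its dimmer probe only. The median of the 13, taken by the brightest probe of each gene with Zic1 at -0.30, was 1.18. Mapk10, a neuronal stress kinase, read 6.26 in ADE_EPZ and 5.22 in ES_EPZ with an adjusted p of 0.0678. Cpe, a prohormone-processing peptidase, read 9.91 and 9.34 with an adjusted p of 0.66. A separate list of 20 general neuronal genes held no called gene and had a median of -0.08. Its brightest members, Chga and Ncam1, had log2 fold changes of 1.00 and 0.22 with adjusted p of 0.208 and 0.891.

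The remaining genes higher in ADE_EPZ had log2 fold changes between 1.51 and 1.85. Nod1, a cytosolic sensor of bacterial cell wall, read 9.80, 9.32 and 9.84 in ADE_EPZ and 7.65, 7.51 and 8.24 in ES_EPZ, with an adjusted p of 4.20e-06. Prkg1, a cyclic GMP-dependent kinase, read 7.69, 7.58 and 7.80 against 6.12, 6.11 and 6.25, and its Control mean of 6.17 was within 0.01 of the ES_EPZ mean of 6.16. Kcne3, a potassium channel subunit, and Ass1, an enzyme of the urea cycle, differed by 1.62 ± 0.28 and 1.53 ± 0.26. Igdcc4, an immunoglobulin-domain receptor, read 10.56, 10.48 and 10.67 in ADE_EPZ and 9.04, 9.04 and 9.11 in ES_EPZ. Fam81a, Tmem229b and Gramd1b, a carrier of cholesterol between membranes, completed the list at 1.71, 1.52 and 1.51.

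For a view of the sequence from which these genes are transcribed, RefSeq promoter windows of 300 bases (250 before to 50 after a start, build GRCm38.p6) were matched by symbol to 21 of the 34 genes higher in ADE_EPZ. Taking for each gene its window with the most CG letters, 15 of the 21, or 71.4%, had at least 50% G and C and a CG count of at least 0.6 of that expected from base composition. The share was 50.6% over 16749 genes of the arrays with a window. All 34 genes were well above background on every ADE_EPZ array, while the 16749 were taken whatever their level. The share among genes of like level was not counted, and called genes without a window are in neither the count nor the share. The median was 19 CG in the 21 windows and 16 in all. 3 genes lower in ADE_EPZ had a window, and 2 of these were rich in CG. The windows shown, with each CG in capitals, run from the richest called gene to the poorest. Both starts of Cdkn2a are included because which of them its probes read was not tested.
Igdcc4 (49 CG, chr9:65101236-65101535, plus strand): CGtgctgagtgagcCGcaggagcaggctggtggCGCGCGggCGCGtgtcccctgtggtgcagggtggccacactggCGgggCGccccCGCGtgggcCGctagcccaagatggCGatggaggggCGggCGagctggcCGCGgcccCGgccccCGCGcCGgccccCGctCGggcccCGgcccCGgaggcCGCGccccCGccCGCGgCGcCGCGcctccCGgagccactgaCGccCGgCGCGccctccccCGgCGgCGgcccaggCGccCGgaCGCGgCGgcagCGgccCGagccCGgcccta
Cdkn2a, first start (45 CG, chr4:89294570-89294869, minus strand): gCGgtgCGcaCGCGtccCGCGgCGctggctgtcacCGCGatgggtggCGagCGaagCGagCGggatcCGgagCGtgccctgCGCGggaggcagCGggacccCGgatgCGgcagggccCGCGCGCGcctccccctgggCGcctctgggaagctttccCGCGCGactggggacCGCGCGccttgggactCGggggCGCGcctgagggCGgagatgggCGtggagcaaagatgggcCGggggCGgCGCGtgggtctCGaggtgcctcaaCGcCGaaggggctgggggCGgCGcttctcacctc
Cdkn2a, second start (12 CG, chr4:89282143-89282442, minus strand): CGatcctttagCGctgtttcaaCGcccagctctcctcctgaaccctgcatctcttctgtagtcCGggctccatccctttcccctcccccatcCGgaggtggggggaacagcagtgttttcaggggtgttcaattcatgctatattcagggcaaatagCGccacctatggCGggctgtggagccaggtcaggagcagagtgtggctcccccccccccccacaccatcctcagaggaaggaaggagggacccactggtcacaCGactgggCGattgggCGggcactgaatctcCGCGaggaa
Rarres1 (19 CG, chr3:67515474-67515773, minus strand): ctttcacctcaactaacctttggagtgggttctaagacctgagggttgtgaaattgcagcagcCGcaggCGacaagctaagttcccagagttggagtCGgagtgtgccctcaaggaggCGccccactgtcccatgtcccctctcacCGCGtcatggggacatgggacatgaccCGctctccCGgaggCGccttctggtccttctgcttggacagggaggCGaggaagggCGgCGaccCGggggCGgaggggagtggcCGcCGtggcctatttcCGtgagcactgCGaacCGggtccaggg
Apoa1 (4 CG, chr9:46228380-46228679, plus strand): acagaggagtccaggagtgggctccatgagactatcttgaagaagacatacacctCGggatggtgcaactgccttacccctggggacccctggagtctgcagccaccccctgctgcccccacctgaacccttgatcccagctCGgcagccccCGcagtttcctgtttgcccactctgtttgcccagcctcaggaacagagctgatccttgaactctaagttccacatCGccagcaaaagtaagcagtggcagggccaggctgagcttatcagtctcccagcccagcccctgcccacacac
Nepn (3 CG, chr10:52391358-52391657, plus strand): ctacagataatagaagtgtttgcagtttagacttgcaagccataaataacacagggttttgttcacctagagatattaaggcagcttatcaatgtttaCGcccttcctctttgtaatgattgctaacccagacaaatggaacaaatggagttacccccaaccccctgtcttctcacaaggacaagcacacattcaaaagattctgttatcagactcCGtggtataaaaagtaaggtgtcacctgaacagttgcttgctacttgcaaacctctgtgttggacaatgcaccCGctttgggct

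Called genes lay at both ends of the range. Nepn, with 3 CG, differed by 2.47 between ADE_EPZ and ES_EPZ on the log2 scale and Igdcc4, with 49, by 1.51. Methylation of histones was not measured on these arrays, and a CG count says nothing of what was bound there.

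The 7 genes lower in ADE_EPZ were a mixed set. Gm38423, a predicted gene, read 8.15, 7.98 and 7.38 in ES_EPZ and 7.58, 8.63 and 8.43 in Control, and was not well above background on any ADE_EPZ array. It was at least 8.36-fold lower in ADE_EPZ, with an adjusted p of 0.00473 for the measured difference of -3.28. That bound too holds for the deposited values: over the 5 versions recomputed from the scanner files the measured difference ranged from -5.58 to -2.07, and the gene was called in 3. A second probe differed by -1.40 with an adjusted p of 0.0716. Hrk, harakiri, a cell death activator of the BH3-only family, read 7.76, 6.73 and 8.89 in ADE_EPZ and 10.21, 10.11 and 10.45 in ES_EPZ. Control read 9.67, 9.63 and 9.81, so ES_EPZ lay above Control and ADE_EPZ below it, and the log2 fold change was -2.46 ± 0.46 (SE) with an adjusted p of 0.00473. The difference of ES_EPZ from Control, 0.55, was not called. Rnu3b1, a U3 small nucleolar RNA that helps process ribosomal RNA, read 8.13, 8.65 and 9.86 against 10.61, 10.40 and 11.82 in ES_EPZ, and the groups were apart on each slide with a log2 fold change of -2.06 ± 0.28. U3 RNA has near-identical gene copies, and which copies the probe reads was not tested.

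Mixl1, a homeobox gene of the primitive streak, read 6.00, 6.27 and 6.52 in ADE_EPZ, 8.04, 8.37 and 7.27 in ES_EPZ and 9.66, 9.27 and 9.90 in Control. The 3 groups did not overlap. The difference between the inhibitor groups was -1.63 ± 0.30 with an adjusted p of 0.00473, and against Control it was -3.34 in ADE_EPZ and -1.72 in ES_EPZ. Mme, the surface peptidase neprilysin, had the same order of means, 8.45 in Control, 7.65 in ES_EPZ and 6.14 in ADE_EPZ. Ppp1r16b, a regulatory subunit of protein phosphatase 1, read 8.01 in ES_EPZ and 8.25 in Control but 6.37 in ADE_EPZ. Atp12a, a proton pump, ran the other way. ADE_EPZ at 6.85 was level with Control at 6.89, and ES_EPZ was high at 8.37.

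**Figure D3:**
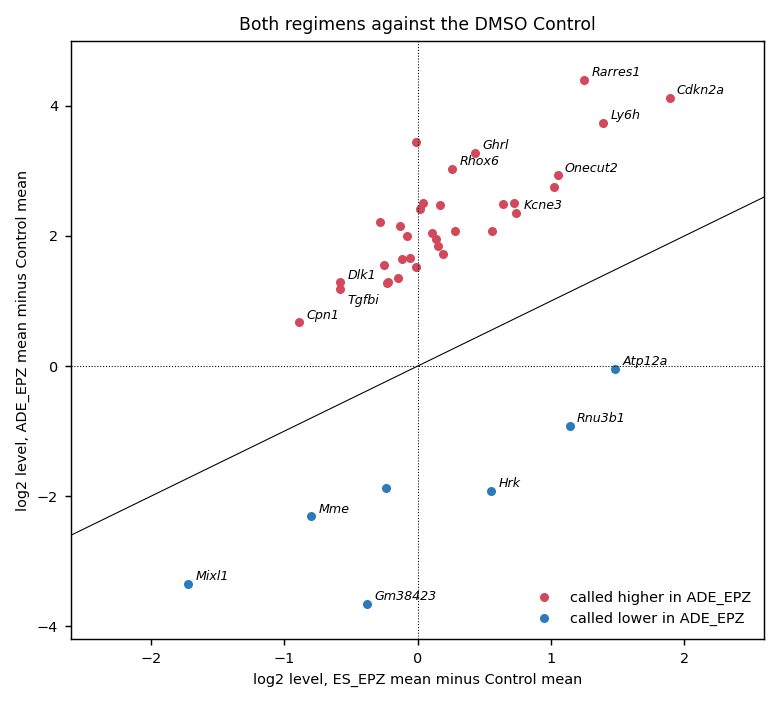
Mean log2 level in ES_EPZ minus Control (horizontal) against ADE_EPZ minus Control (vertical) for the 40 genes called on their brightest probe. Points on the solid diagonal would have equal levels in both inhibitor groups. The groups share the Control arrays, so the spread along the diagonal is in part that of Control. Most red points lie near the vertical dotted line, where ES_EPZ equals Control, while Cdkn2a, Ly6h, Rarres1 and Onecut2 lie to its right.

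The Control arrays, which are in neither compared group but entered the fit that estimated the spread, place the genes further. By the brightest probe, Control was nearer to ES_EPZ than to ADE_EPZ for 33 of the 34 genes higher in ADE_EPZ, and the median of ES_EPZ minus Control over the 34 was 0.08, against 2.08 for ADE_EPZ minus Control. All 3 ADE_EPZ arrays exceeded all Control arrays for 33 of the 34. All 3 ES_EPZ arrays exceeded all Control arrays for 8 of them. Of the 7 lower genes, Control was nearer to ES_EPZ for 5. These genes were chosen for a large gap between ADE_EPZ and ES_EPZ, so the distances from Control are a description and not a test. The share of all genes without overlap with Control was not counted, so the counts of 33 and 8 cannot be called particular to these genes.

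The label of the samples was checked against markers of endoderm. All 9 defining markers were well above background in at least 1 of the compared groups, none was called, and their median log2 difference was 0.20. Cer1, a secreted antagonist of anterior endoderm, read 15.06 in ADE_EPZ and 14.89 in ES_EPZ with a difference of 0.17 ± 0.77 (SE). Gsc, a homeobox gene of the anterior streak, read 12.97 and 12.77 with a difference of 0.20 ± 0.39. Hhex, the homeobox gene that marks ADE, read 12.34 and 11.65 with a difference of 0.69 ± 0.39. These standard errors leave room for differences beyond 1.5 log2 units in Cer1 at about 2 standard errors, so equal levels were not shown. In the definitive endoderm list of the study, which holds 34 genes, 3 were called higher, Cpn1 and Apoa1 among them, and none lower, beside 0.151% and 0.0312% of all genes tested. The median was 0.44, and 25 of its genes, or 73.5%, were higher in ADE_EPZ on all 3 slides, while 21.7% of all named genes were. In the visceral endoderm list none of 13 was called, with a median of 0.45 and 10 higher on all slides, or 76.9%. The study's endoderm list held 12 genes, none called, with a median of -0.04.

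No difference was called in the RNA of the targeted enzyme. Ezh2 read 11.44 in ADE_EPZ, 11.52 in ES_EPZ and 11.86 in Control, and the difference between the inhibitor groups was -0.08 ± 0.11 with an adjusted p of 0.877. None of 12 PRC2 subunit genes was called and their median was -0.07. EPZ6438 blocks the enzyme and not its gene, so these levels do not check the treatment.

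**Figure D4:**
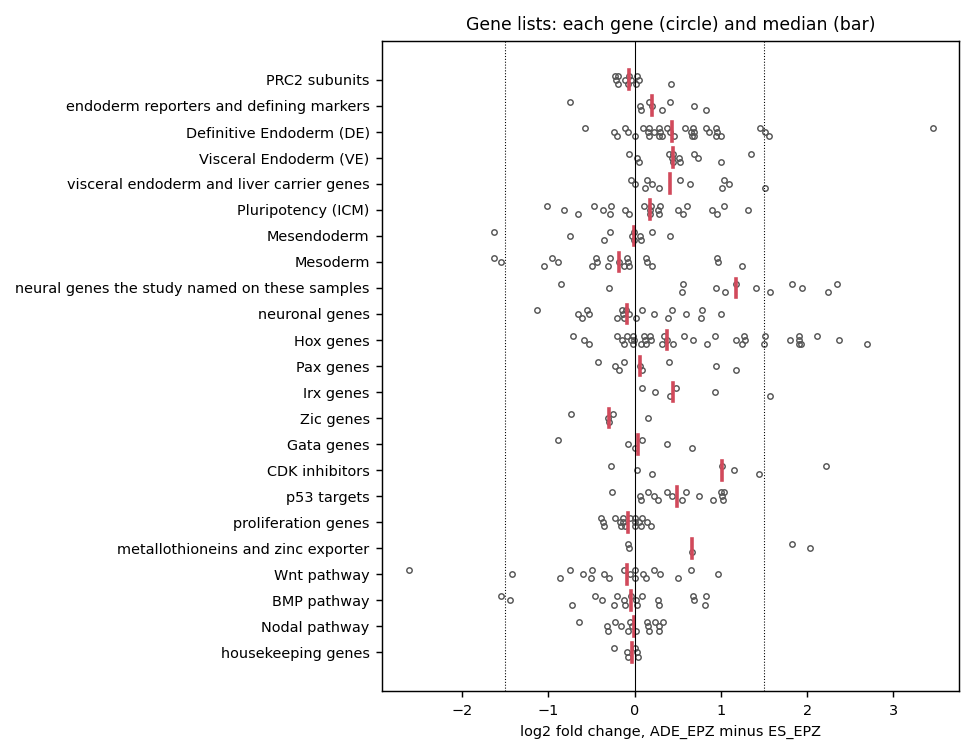
Log2 fold change of ADE_EPZ minus ES_EPZ for each gene (circle) of 23 lists, 1 list a row, with the median as a red bar and dotted lines at 1.5 in either direction; circles are staggered vertically for visibility. Each gene is shown by its brightest probe, so Zic1 appears at -0.30. CDK inhibitors and the neural genes named by the study had medians of 1.01 and 1.18, and PRC2 subunits lay within 0.42 of 0.

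Hox genes, the classic targets of Polycomb, were measured for 39 members, of which 23 were well above background. Hoxc13 was called higher and none was lower, beside 0.151% and 0.0312% of all genes tested. The median log2 difference of 0.38 stood beside 23 genes, or 59%, that were higher in ADE_EPZ on all 3 slides, and none that were lower on all 3, against 21.7% and 21.3% of all named genes. Hoxc9, Hoxc6 and Hoxc4 had the largest differences, 2.69, 2.37 and 2.11, with adjusted p of 0.14, 0.0529 and 0.0469, and did not pass. Of the families of other developmental regulators, 9 Pax, 6 Irx and 6 Gata genes held no call, with medians of 0.06, 0.44 and 0.04. All Irx and Gata genes but only 3 of the 9 Pax genes were well above background, so the Pax median rests mostly on genes near background. Irx1 had the largest difference of the 3 families, 1.57 with an adjusted p of 0.026. Pax3 and Pax7, the brightest Pax genes, had differences of 1.18 and -0.23, Irx3 and Irx5 of 0.48 and 0.41, and Gata4 and Gata6 of 0.00 and 0.08, none of which passed.

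Pluripotency genes also differed by less than the threshold. In the study's list of 23 none was called, the median was 0.18, and 10 genes, or 43.5%, were higher in ADE_EPZ on all 3 slides, beside 21.7% of all named genes. Dppa5a read 13.27 in ADE_EPZ and 11.96 in ES_EPZ, a difference of 1.31 ± 0.44 with an adjusted p of 0.155, and Zfp42 read 9.38 and 8.49 with an adjusted p of 0.232. Pou5f1 read 8.19 and 8.48, and it was lower in ADE_EPZ on the slides of replicates 1 and 3, by -0.93 and -1.43 on the log2 scale, and higher on that of replicate 2. Of the mesendoderm list of 11 and the mesoderm list of 21, Mixl1, which is on both, was called lower and no gene higher. Of all genes tested, 0.0312% were called lower and 0.151% higher. The medians of these lists were -0.01 and -0.18. 9 mesoderm genes, or 42.9%, were lower on all 3 slides, beside 21.3% of all named genes.

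Some genes known from earlier results of these data to differ from Control in the inhibitor groups were not called between those groups. Bok, a BCL2 relative, read 11.92 in ADE_EPZ, 12.01 in ES_EPZ and 8.60 in Control. Eppk1, an epithelial cytolinker, read 10.75, 11.13 and 7.79 in the same order. For both the inhibitor groups overlapped, and the difference between them was -0.09 ± 0.48 for Bok and -0.38 ± 0.63 for Eppk1. Dio3, which inactivates thyroid hormone, was higher in both than in Control at 5.64, with 8.43 in ADE_EPZ and 9.64 in ES_EPZ, a difference of -1.21 with an adjusted p of 0.227. Bmp4, a signal of the posterior streak, read 10.55 in ADE_EPZ and 14.32 in Control with ES_EPZ between them, and the difference between the inhibitor groups was -1.45 with an adjusted p of 0.266. Tnfrsf19, a Wnt-responsive receptor, read 6.44, 9.05 and 11.76 in ADE_EPZ, ES_EPZ and Control. For Tnfrsf19 the difference between the inhibitor groups was -2.62 ± 0.56 with an adjusted p of 0.0147, just outside the threshold. Mt1, a metallothionein, read 13.90 in ADE_EPZ and 12.08 in ES_EPZ with an adjusted p of 0.182.

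**Figure D5:**
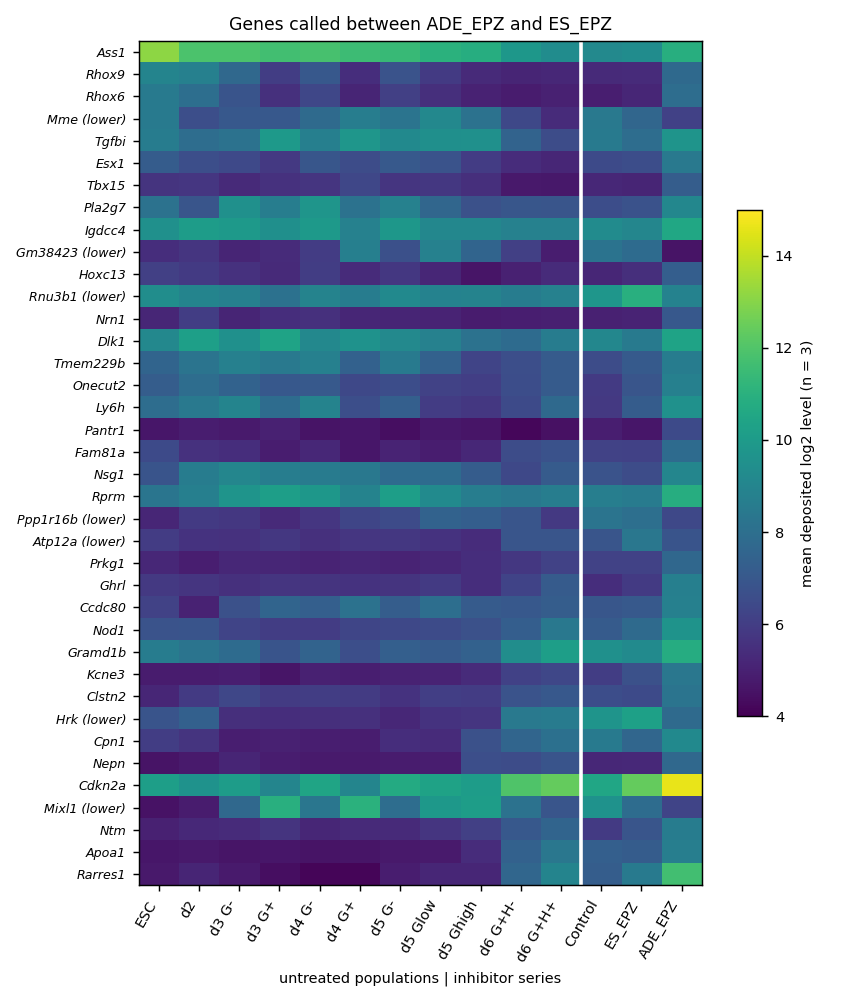
Mean log2 level (colour, n = 3) of genes called on their brightest probe, in the 11 untreated populations from ESC to day 6 (left of the white line) and in the inhibitor series (right), with rows ordered by the log2 fold change of untreated d6 G+H+ cells over ESC. The series lie on separate slides, so levels across the white line carry a batch difference of unknown size. Rarres1, Apoa1, Ntm and Cdkn2a at the bottom rose during untreated differentiation, while Ass1, Rhox9 and Rhox6 at the top fell.

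The untreated arrays are in neither compared group and show whether these genes also move in normal differentiation. They entered the same fit, however, so each probe has the same estimate of spread in both comparisons. A probe with a small spread passes more easily in both. All 34 genes higher in ADE_EPZ were well above background on every ADE_EPZ array. Among all 21156 named genes, 14016 counted as well above background. The shares below are therefore a description and not an independent test. Untreated day 6 cells positive for both reporters (d6 G+H+) were compared with stem cells (ESC). Of the 34 genes higher in ADE_EPZ, 9 were higher in d6 G+H+, or 26.5%, while 5.84% of all genes were, and 5 were lower, or 14.7%, while 5.45% of all genes were. The 9 were Apoa1, Cdkn2a, Clstn2, Cpn1, Gramd1b, Kcne3, Nepn, Ntm and Rarres1. The 5 were Ass1, Esx1, Rhox6, Rhox9 and Tgfbi. Rarres1 and Apoa1 were not well above background on any ESC array and read 8.96 and 8.34 in d6 G+H+, at least 16.3-fold and 11-fold higher. Rhox6 read 8.47 in ESC and was at least 10.4-fold lower in d6 G+H+, where no array had it well above background. Rhox9 went from 8.95 to 5.22, with a log2 fold change of -3.56. For the other 20 genes, Onecut2, Nrn1 and Pantr1 among them, neither call was made.

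Between d5 cells with high Gsc reporter (d5 Ghigh) and d6 G+H+ cells, 9 of the 34 genes were higher at d6, or 26.5%, while 2.65% of all genes were, and 2 were lower, or 5.88%, while 1.34% of all genes were. These shares carry the same limits as those against ESC. Ghrl, Ly6h, Nod1 and Fam81a were higher in this last step although they were not called over the whole course. Of the 7 genes lower in ADE_EPZ, Mixl1 and Hrk were higher in d6 G+H+ than in ESC and Mme was lower. Mixl1, Mme and Gm38423 were lower at d6 than in d5 Ghigh, and Hrk was higher.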

How the data were processed

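RNA of 42 cultures or sorted populations in 14 groups was hybridised to 1-colour Agilent mouse arrays. The authors deposited the scanner's per-spot intensity (foreground and local background medians) and, for all arrays together, log2 values that they had background-corrected by normexp with an offset of 10 and quantile normalised. These log2 values were used. Scanner software was Agilent Feature Extraction 11.0.1.1 for the untreated series and 12.0.1.1 for the inhibitor series, per the file headers. Repeated spots of a probe were averaged, leaving out 7968 spots marked as outliers over all arrays; 28291 of 55681 probes had 1 of 22460 RefSeq accessions.

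limma 3.58.1 (R 4.3.3) was fitted to all arrays with group means and slide as a fixed block, with Benjamini-Hochberg adjustment over all probes. Slide and replicate number are the same pairing for ADE_EPZ and ES_EPZ, and deviations from the group means correlated at 0.219 to 0.303 for arrays of the same slide and at -0.175 to -0.051 for others. Unless another is named, a gene's values are those of its brightest probe, judged by the mean of all arrays. A level not well above background on any array of a group was replaced on each array by the higher of that probe's own level and the lowest level well above background, and the fold is then given as a bound. Genes were named by a rule: the 15 with the largest change in each direction, called genes of 36 lists (up to 4 each, otherwise the 2 brightest), every other called gene and a short list of genes. Cdkn2b, Cdkn2c, Hoxc4, Hoxc6, Hoxc9, Irx1, Afp, Msx2, Sp5, Zeb2, Snai2 and Serpine2 were named after their values were seen. The members and lists were chosen with earlier results of these data known. No set test was run on the lists. The model was tested on simulated data in which each probe had the same spread in all groups. That test cannot show whether estimating the spread from all 42 arrays suits the real data. The alternatives are given at the end. A few of the called genes are counted but not reported here by name.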

Additional observations from a re-analysis of the deposited data

Results flagged for a closer look

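On the called probe of 3 genes the inhibitor groups lay on opposite sides of Control, with no overlap between any of the 3 groups. The genes were chosen for a gap between ADE_EPZ and ES_EPZ, and the share of all genes with this pattern was not counted. Their place relative to Control is therefore a description only. ES_EPZ was not called against Control in any of them. The limma adjusted p was 0.604 for Hrk, 0.744 for Igdcc4 and 0.194 for Zic1. The test of the difference is the direct comparison of ADE_EPZ with ES_EPZ. Hrk was above Control in ES_EPZ and below it in ADE_EPZ, with a log2 difference between them of -2.46 and an adjusted p of 0.00473 in limma. Igdcc4 was above Control in ADE_EPZ and slightly below it in ES_EPZ, with a difference of 1.51 and an adjusted p of 0.00311. Its ES_EPZ arrays read 9.04, 9.04 and 9.11 and its Control arrays 9.29, 9.25 and 9.34. The call of Igdcc4 was lost with any 1 of the 6 compared arrays left out, and that of Hrk was kept in 1 of these 6 fits. Zic1 was above Control in ADE_EPZ and below it in ES_EPZ on its called probe, with a difference of 2.62 and an adjusted p of 0.001, while its brighter probe was not called.

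Probes without a RefSeq accession were left out of the gene counts, and 5 of them passed the same thresholds, all higher in ADE_EPZ. In 4 of these, every ADE_EPZ array also lay above every Control array. A pair of probes that the array annotation names BRN1-A, an older name used for Pou3f3, had log2 fold changes of 1.57 and 1.75 and was well above background on no Control array. The probe for the transcript ENSMUST00000165104 had one of 1.76, and a probe for an interval of chromosome 7 that carries no gene name had one of 1.94.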

How the results depend on the processing

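Beside 34 genes higher and 7 lower, 27 were higher and 3 lower without the replicate block, all 3 among the 7; with the slide as a random block, 35 and 8. The 9 inhibitor arrays alone gave 18 higher and 0 lower, and the 6 compared arrays alone gave 0 and 0 in limma, with 6058 and 6920 probes at an unadjusted p under 0.05. Recomputed from the scanner files, the counts were 33 and 5 at the authors' settings, 18 and 2 with an offset of 50, 22 and 3 without background correction, and 24 and 3 with quantile normalisation within each series. An adjusted p of at most 0.05 gave 51 and 14. Leaving out each array in turn gave 20 to 31 higher and 1 to 14 lower. Leaving out each slide in turn, an alternative chosen after seeing the data, gave 12 to 30 higher and 0 to 12 lower, with 12 and 0 without replicate 1 of both groups. Fits with arrays left out also had fewer arrays, and the cause of these changes was not tested. Counts with the 75th percentile of the processed signal, with probes well above background only, with 1 probe per gene and with symbols in place of accessions stayed within 1.5 times of 34 and of 7. Of 1957 values of 103 named genes under an alternative, 327 lost a call and 1 gained one. Only the 40 genes called on their brightest probe could lose a call, so 327 is a larger share of their values than of all 1957. A change of sign was counted only where a call was made, and 0 such values reversed. Among genes not called, signs did change in some, as in Pou5f1, which ranged from -1.18 to 0.28. The counts of these genes called in d6 G+H+ cells against ESC stayed within 1.5 times of 9 and 5 under both other treatments of the slide. Dim genes depend on the background correction: the difference in Pantr1 ranged from 0.99 to 4.10 over the recomputed versions, and that in Gm38423 from -5.58 to -2.07.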

Other observations

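Signalling genes held no call between ADE_EPZ and ES_EPZ. The median log2 difference was -0.08 over 20 Wnt pathway genes, -0.04 over 19 BMP pathway genes, -0.01 over 16 Nodal pathway genes and -0.01 over 18 FGF pathway genes, beside 0.00 over all named genes. Of the Wnt pathway genes 9, or 45%, were lower in ADE_EPZ on all 3 slides, while 21.3% of all named genes were. The differences furthest from 0 in these lists were negative, -2.62 in Tnfrsf19, -1.55 in Msx2, -1.45 in Bmp4 and -1.42 in Sp5, and none of them passed. The brightest members lay closer to 0: Sfrp5 and Dkk1 differed by 0.22 and 0.10, Id3 and Id1 by -0.04 and 0.28, Lefty1 and Cfc1 by 0.28 and -0.08, and Fgf5 and Fgf8 by 0.14 and -0.43.

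Epithelial and mesenchymal genes held no call. The median was 0.13 over 10 epithelial genes, with Krt18 and Krt8 at -0.10 and -0.19, and -0.31 over 8 mesenchymal genes, with Fn1 and Vim at -0.75 and -0.13, none of which passed. The mesenchymal genes went both ways, from Zeb2 at -0.78 to Snai2 at 1.11, and 4 of the 8, or 50%, were lower in ADE_EPZ on all 3 slides, beside 21.3% of all named genes. Of 12 genes for plasma carriers made by visceral endoderm and liver, Apoa1 was called higher, beside 0.151% of all genes tested. Afp, alpha-fetoprotein, had a difference of 1.01 with an adjusted p of 0.00423, short of the fold required.

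Lists of other cell types held no call, though single genes ranged from -0.91 to 1.70 in the trophoblast list and from -0.99 to 1.23 in the cardiac list. In the blood and vessel list the range was -0.91 to 1.24, and in the germline list -0.48 to 1.45. Serpine2, on the trophoblast list, had a difference of 0.93 with an adjusted p of 0.00187, short of the fold required. Medians were 0.10 over 11 trophoblast genes, with Gcm1 at 0.17 and Eomes at -0.75, 0.34 over 8 cardiac genes, with Hand2 at 0.77 and Myl7 at -0.89, 0.01 over 11 blood and vessel genes, with Kdr at -0.31 and Runx1 at -0.20, and -0.02 over 18 germline genes, 6 of them well above background, with Taf7l at -0.01 and Sycp3 at 0.28. The ectoderm, neurectoderm and mixed ectoderm and mesoderm lists of the study, of 11, 7 and 10 genes, had medians of -0.01, -0.07 and -0.16. Of 5 metallothionein and zinc exporter genes the median was 0.67, with Mt2 at 2.03 and an adjusted p of 0.0983. The median was -0.23 over 9 stress genes, with Chac1 and Trib3 at -1.15 and -0.95, and -0.03 over 6 housekeeping genes, with Actb at 0.01. Over the 5 Zic genes, by their brightest probes, the median was -0.30.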
